A study of Sus scrofa with 32 samples.

Results

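The longissimus dorsi, the long loin muscle beside the spine, was compared between the cross of Landrace with Dapulian (LDPL) and Landrace (L). All pigs of both groups were 6 months old, carried the genotype label wild type and were kept under like housing and feed. Landrace is a lean commercial breed, and Dapulian (DPL) is an indigenous Chinese breed that also forms a group of the series. Members were chosen by breed label alone, which gave 8 LDPL and 8 L libraries, 16 of the 32 in the series. The labels give no sex, sire or dam breed, generation, litter, slaughter order or batch. The L libraries are numbered in a series of their own, so breed and any handling peculiar to the L animals cannot be told apart in any value below. Nothing in the labels states that libraries came from separate animals beyond the group size, so p-values measure the spread between these libraries, which may in part be technical.

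Loin muscle is made mostly of fast glycolytic fibres, with blood vessels, connective tissue, fat cells and resident immune cells between them. Fibres change their transcripts quickly after stretch, contraction, fasting or heat: immediate early genes encode transcription factors that need no new protein to be switched on, chaperones refold damaged proteins, and the proteasome removes proteins tagged with ubiquitin. Slower programmes set fibre type, growth and fuel use. Levels are given as CPM, the reads of a gene scaled by library size and TMM factor, and a set of 3 values is the lowest, the median and the highest of 8 libraries. A log2 change is LDPL over L, from edgeR's quasi-likelihood test fitted over all 32 libraries. The ± beside it is an approximate standard error, the absolute log2 change divided by the square root of the test's F value. A gene is called higher or lower at a Benjamini-Hochberg adjusted p under 0.05 over 12821 tested genes. In bulk tissue, fewer cells of a type and less RNA per cell cannot be told apart.

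In LDPL, 1899 genes were higher and 1884 were lower than in L, which is 14.8% and 14.7% of the 12821 tested and 29.5% together. Every list count below stands against these shares. Counts are out of the tested members, and in many lists other listed genes were not tested. For example, 12 of 30 immediate early genes, 13 of 23 adipocyte genes, 14 of 24 lymphocyte markers and 13 of 17 blood markers were not tested. At least 2-fold, 452 genes (3.53%) were higher and 484 (3.78%) lower. The largest differences were mostly rises: at least 4-fold, 109 genes were higher and 39 lower, and at least 8-fold, 36 were higher and 8 lower. In 509 genes (3.97%) all 8 LDPL libraries lay above all 8 L libraries, and in 322 (2.51%) all lay below. The median level was 20.8 CPM for genes called higher and 6.24 CPM for genes called lower, against 7.34 CPM for all tested genes. The median listed length was 2097 bases for genes called higher and 2443.5 bases for genes called lower, against 2085 bases for all tested genes. The median log2 change of all tested genes was -0.03. By limma on log2(RPKM + 1), reads scaled by gene length and depth, the split was 1210 higher and 2047 lower, so that 37.2% of calls were rises, against 50.2% in the edgeR test.

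On the first principal component of the 16 libraries, with 31.5% of the variance, LDPL libraries scored -47.1 to -21.5 and L libraries 29.7 to 39.0. The second component, with 11.3%, set L replicate 2 apart at -61.8, while the LDPL libraries ran from -23.1 to 21.0 and the other L libraries from -0.47 to 31.1. List counts that moved by over 1.5 times without this library are also given without it. Mean depth was 24612294 ± 771859 reads in LDPL and 26590633 ± 1158018 reads in L (SD, n = 8, two-sided exact permutation p = 0.00233, adjusted 0.0117 over 5 library measures). The files listed 14714.5 ± 146 genes per LDPL library and 14984.1 ± 307 per L library (SD, n = 8, exact permutation p = 0.0235, adjusted 0.0587). The share of reads from mitochondrially encoded genes was 22.9 ± 4.37% in LDPL and 20.8 ± 2.58% in L (SD, n = 8, exact permutation p = 0.266, adjusted 0.443). The part of depth in the gene results was not tested.

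**Figure D1:**
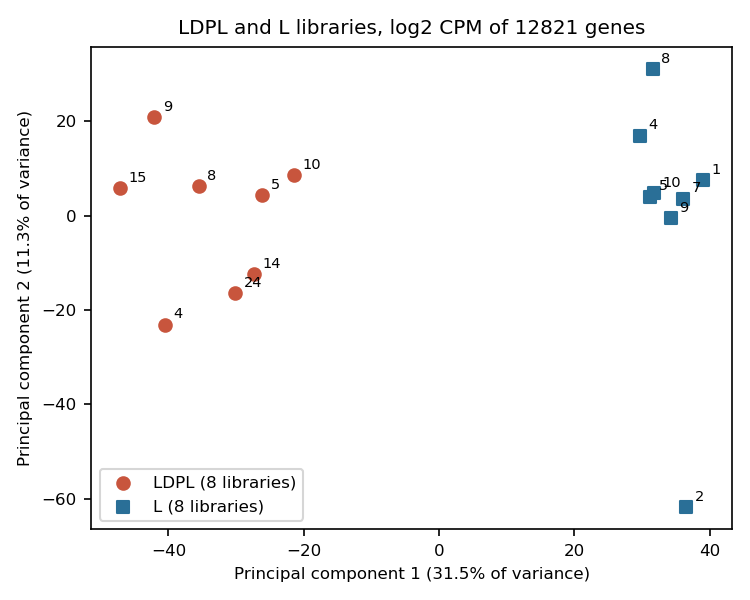
First and second principal components of log2 CPM in 8 LDPL (circles) and 8 L (squares) libraries, each labelled with its replicate number. The groups do not overlap on the first component, and L replicate 2 lies at -61.8 on the second.

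**Figure D2:**
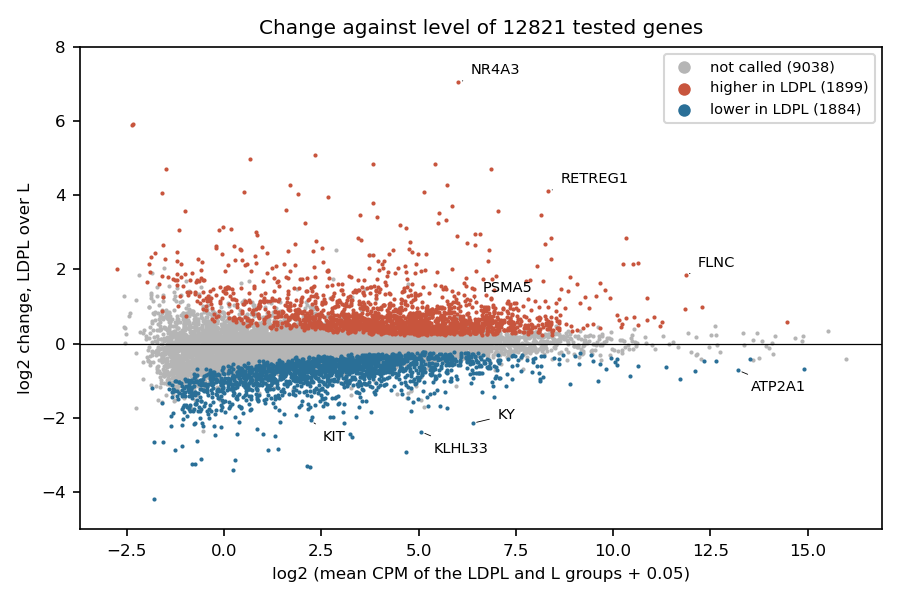
Log2 change, LDPL over L, against the log2 mean level of the 12821 tested genes, with 1899 called higher and 1884 called lower. Named points include NR4A3 at 7.05 and KLHL33 at -2.37.

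Immediate early genes were among the largest rises. Of 18 tested members, 14 were higher in LDPL and 1 was lower, and the median change on the log2 scale was 2.28, against 14.8% higher and 14.7% lower among all genes. Their summed level was 799, 1512 and 2032 CPM in LDPL, against 156, 241 and 314 CPM in L, with no overlap. NR4A3, an orphan nuclear receptor induced by contraction, had 65.8, 100.1 and 301 CPM in LDPL, against 0.232, 1.09 and 1.58 CPM in L (log2 change 7.05 ± 0.66, adjusted p = 1.00e-08). Every LDPL library lay above every L library by a wide margin. FOS, a subunit of the AP-1 transcription factor, had 229, 553 and 835 CPM in LDPL, against 2.18, 53.5 and 86.1 CPM in L (log2 change 3.47 ± 0.55, adjusted p = 2.32e-05). The L libraries were spread widely for this gene, and the groups still did not overlap. MAFF, a small Maf protein that pairs with stress-responsive partners, had 44.01, 96.7 and 153 CPM in LDPL, against 3.08, 5.404 and 7.01 CPM in L (log2 change 4.27 ± 0.32, adjusted p = 3.40e-11). CSRNP1, a nuclear protein of the same early class, had 36.2, 63.6 and 105 CPM in LDPL, against 2.605, 3.59 and 5.45 CPM in L (log2 change 4.101 ± 0.36, adjusted p = 1.24e-09). KLF4, a zinc finger factor, changed by 2.55 and NR4A2, a relative of NR4A3, by 3.26 on the log2 scale. NR4A2 overlapped between groups, since its lowest LDPL library had 24.5 CPM and its highest L library 27.04 CPM. The lower member was SRF, the serum response factor (log2 change -0.35 ± 0.13, adjusted p = 0.0488), whose call was lost in 15 of 24 other settings.

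Of 6 tested phosphatase and Sprouty genes, which damp MAP kinase signals, 2 were higher and 0 lower. DUSP1, which dephosphorylates several MAP kinases, had 285, 415 and 639.8 CPM in LDPL, against 42.9, 96.8 and 166 CPM in L (log2 change 2.08 ± 0.31, adjusted p = 8.01e-06). DUSP4, a nuclear relative, had 7.94, 11.4 and 19.5 CPM in LDPL, against 2.13, 5.13 and 5.76 CPM in L (log2 change 1.35 ± 0.24, adjusted p = 7.73e-05). In both genes all LDPL libraries were above all L libraries. MAP2K6, a kinase that activates the p38 MAP kinases, had 1.57, 2.66 and 5.02 CPM in LDPL, against 5.04, 14.5 and 21.2 CPM in L (log2 change -2.15 ± 0.31, adjusted p = 3.78e-06). It was among the 15 largest falls of genes with a symbol and at least 10 CPM in the higher group, again without overlap. RCAN1, an inhibitor of the phosphatase calcineurin, had 103, 198 and 521 CPM in LDPL, against 15.5, 21.2 and 23.2 CPM in L (log2 change 3.58 ± 0.47, adjusted p = 1.45e-06). CCN1 and CCN2, secreted matrix-associated signals, changed by 2.97 and 1.96, and neither overlapped between groups.

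**Figure D3:**
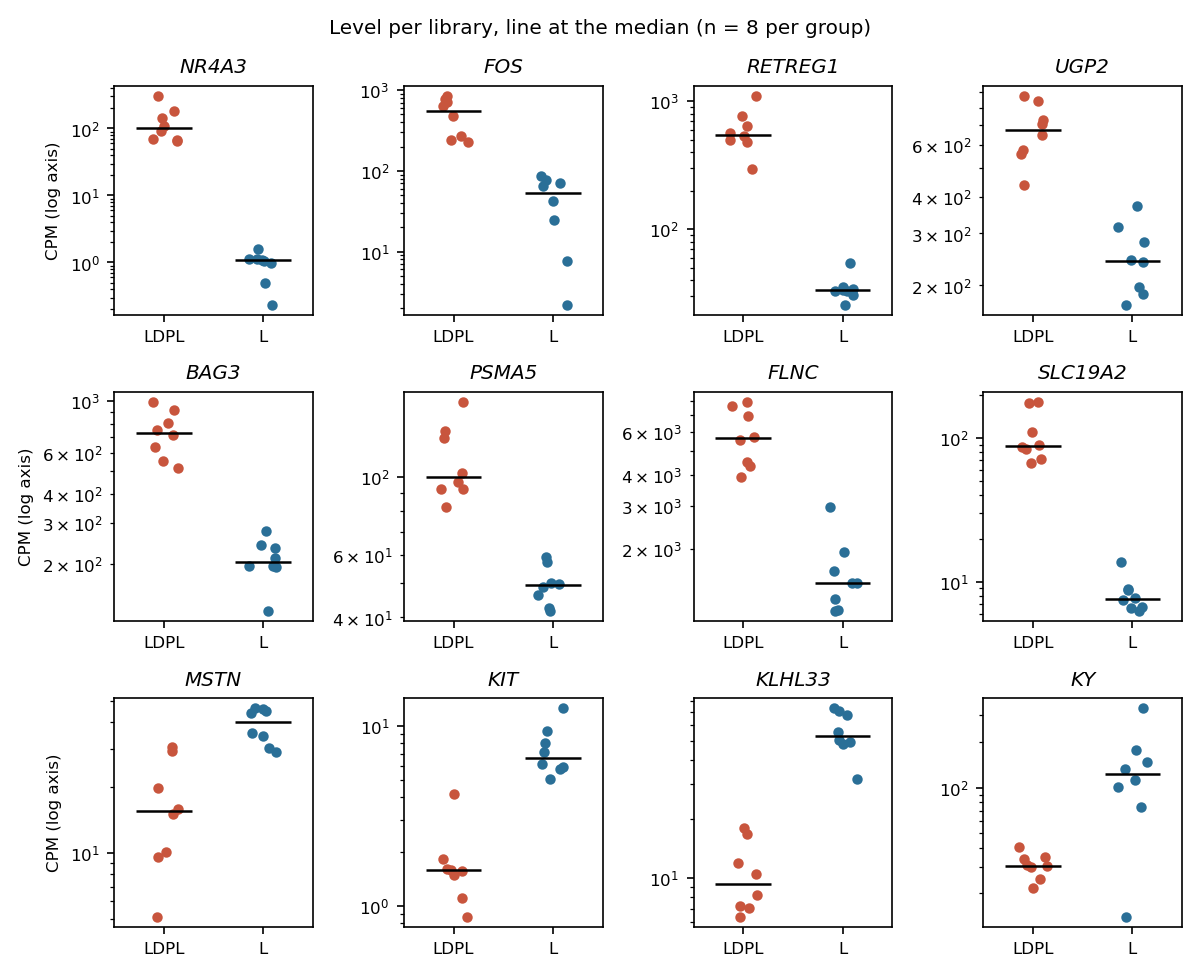
CPM per library on a log axis for 12 genes in LDPL (left of each panel) and L (right), with a line at the median (n = 8 each). The groups are apart in NR4A3, FOS, RETREG1, UGP2, BAG3, PSMA5, FLNC, SLC19A2, KIT and KLHL33 and overlap in MSTN and KY.

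Most chaperone genes rose: 19 of 26 tested heat shock proteins and cochaperones were higher and 0 lower (median log2 change 0.84). Their summed level was 6930.0, 9217 and 11083 CPM in LDPL, against 3082, 3801 and 4877 CPM in L, with no overlap. BAG3, a cochaperone of chaperone-assisted autophagy at the Z-disc, had 516, 733 and 988 CPM in LDPL, against 126, 205 and 277 CPM in L (log2 change 1.81 ± 0.19, adjusted p = 1.98e-08). HSPB8, the small heat shock protein that works with BAG3, had 1003, 1085 and 2137 CPM in LDPL, against 299, 461 and 667 CPM in L (log2 change 1.44 ± 0.18, adjusted p = 2.69e-07). FLNC, the muscle filamin that this pair clears when damaged, had 3919.9, 5640.0 and 7899 CPM in LDPL, against 1121, 1459 and 2964 CPM in L (log2 change 1.85 ± 0.25, adjusted p = 1.11e-06). All 3 were higher in every LDPL library than in any L library. HSPH1, an exchange factor of HSP70, had 119, 171 and 269.8 CPM in LDPL, against 24.8, 36.99 and 60.4 CPM in L (log2 change 2.22 ± 0.27, adjusted p = 3.59e-07), and HSF2, a heat shock transcription factor, changed by 1.36. ZFAND2A, a stress-induced zinc finger protein linked to the proteasome, had 21.4, 36.9 and 113 CPM in LDPL, against 1.94, 5.57 and 8.01 CPM in L (log2 change 3.11 ± 0.48, adjusted p = 1.75e-05). DDX3X, an RNA helicase with stress granule roles, changed by 1.62 with an adjusted p of 7.59e-10.

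The endoplasmic reticulum list was mixed, with 5 higher and 3 lower of 18 tested and a median of 0.10. With limma-voom with quantile normalization 3 were higher and 0 lower. PPP1R15A, which restarts translation after stress by reversing the phosphorylation of eIF2alpha, had 103, 134 and 236 CPM in LDPL, against 14.1, 23.8 and 42.3 CPM in L (log2 change 2.65 ± 0.24, adjusted p = 1.75e-09). DNAJB9, a chaperone of the reticulum, changed by 1.13. Both were without overlap. PHGDH, the first enzyme of serine synthesis, changed by -2.84 ± 0.66, with 0.257 to 2.03 CPM in LDPL and an L median of 0.961 CPM. L replicates 5, 9 and 10 had 13.4, 13.4 and 5.39 CPM. The other L libraries had 0.271 to 1.08 CPM, inside the LDPL range. The PHGDH call was lost with limma-voom with quantile normalization (log2 change -1.69, adjusted p = 0.104) and with limma-voom with sample weights (log2 change -2.197, adjusted p = 0.0631).

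Nearly all tested proteasome genes were higher. Of 35 listed, 20 were tested and 15 were not. Of the 20, 19 were higher and 0 lower (median log2 change 0.61), against 14.8% and 14.7% among all genes. The counts were the same without L replicate 2. PSMA5, a subunit of the catalytic core, had 82.3, 99.7 and 163 CPM in LDPL, against 41.7, 49.3 and 59.5 CPM in L (log2 change 1.17 ± 0.16, adjusted p = 1.42e-06). PSMD12, a subunit of the regulatory lid, had 193, 223 and 338 CPM in LDPL, against 78.97, 114 and 141 CPM in L (log2 change 1.105 ± 0.15, adjusted p = 1.62e-06). PSMD14, the deubiquitinase of the lid, and PSMC2, an ATPase of its base, changed by 0.99 and 0.72. These 4 subunits did not overlap between groups, and the summed level was 2846, 3153 and 3965 CPM in LDPL, against 1788, 2022 and 2197 CPM in L.

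Ubiquitin ligases and deubiquitinases of muscle moved in both directions, with 12 higher and 5 lower of 32 tested and a median of 0.20. TRIM63, the ligase MuRF1 that marks myofibrillar proteins in wasting, had 306, 407 and 586 CPM in LDPL, against 75.2, 179.9 and 284 CPM in L (log2 change 1.15 ± 0.19, adjusted p = 1.83e-05). ASB5, a substrate adaptor of muscle, had 613, 819 and 947 CPM in LDPL, against 306, 362 and 447 CPM in L (log2 change 1.09 ± 0.17, adjusted p = 7.23e-06). OTUD1, a deubiquitinase, changed by 2.89. These 3 genes were above L in all LDPL libraries. KLHL33, a Kelch family protein, had 6.36, 9.35 and 18.1 CPM in LDPL, against 32.1, 53.02 and 73.1 CPM in L (log2 change -2.37 ± 0.31, adjusted p = 1.49e-06), below every L library. TRIM32, a ligase whose mutation causes a human limb-girdle dystrophy, changed by -0.68, and the adaptors ASB15 and ASB4 by -0.97 and -0.91.

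In autophagy and the lysosome 8 of 37 were higher and 5 lower, and the lower count fell to 1 without L replicate 1, to 2 without LDPL replicate 15 and to 3 without L replicate 8 or LDPL replicate 10. RETREG1, the receptor for autophagy of the endoplasmic reticulum, had 295, 549 and 1088 CPM in LDPL, against 25.7, 33.4 and 54.6 CPM in L (log2 change 4.12 ± 0.25, adjusted p = 7.26e-14), the smallest adjusted p among named genes called higher. SQSTM1, the cargo receptor p62, had 899, 1389 and 1867 CPM in LDPL, against 387, 618 and 741 CPM in L (log2 change 1.22 ± 0.18, adjusted p = 5.83e-06). WIPI1, which acts as the isolation membrane forms, changed by 0.84. All 3 were without overlap. TFEB, the master factor of lysosome genes, had 29.2, 40.97 and 49.3 CPM in LDPL, against 39.4, 58.1 and 73.5 CPM in L (log2 change -0.51 ± 0.14, adjusted p = 0.00477), with overlapping groups. In the calpain system, calcium-activated proteases tied to meat tenderness, 1 of 8 was called, 2 without LDPL replicate 5 or 9 and 3 without L replicate 8 or LDPL replicate 10. CAPN1 changed by -0.34 ± 0.10 (adjusted p = 0.0126). CAPN3, the muscle calpain, was at -0.25 ± 0.12 (adjusted p = 0.129).

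**Figure D4:**
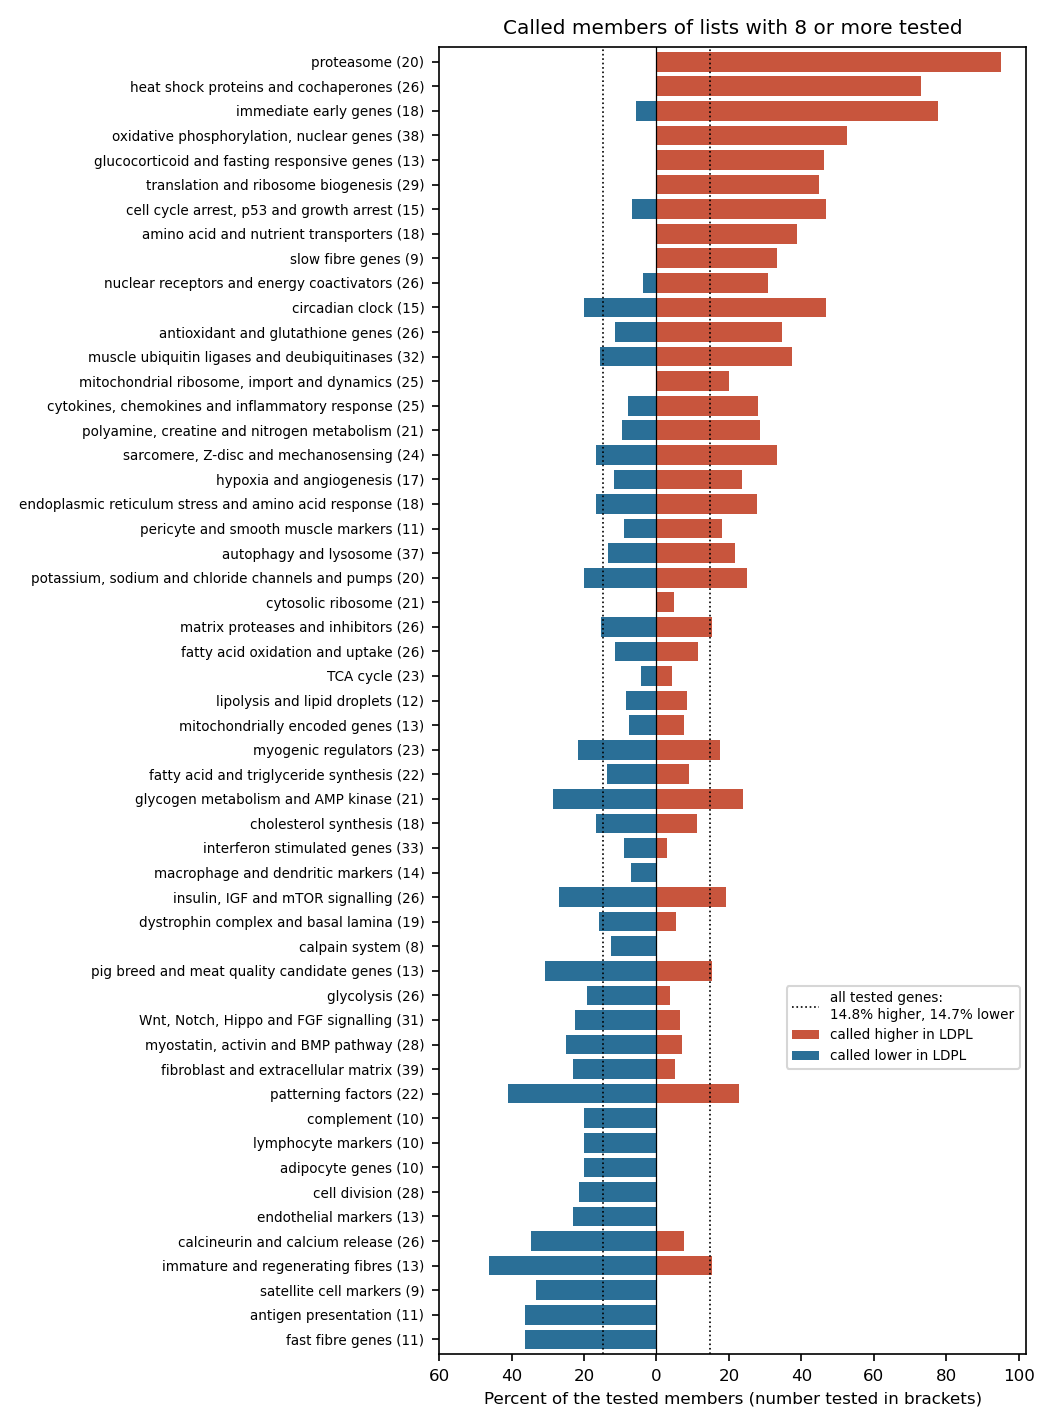
Percent of tested members called higher (right of 0) and lower (left of 0) in LDPL for the lists with at least 8 tested members. Dotted lines mark 14.8% and 14.7% of all tested genes.

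Outside the ribosome, 13 of 29 translation genes rose and 0 fell (median 0.28). In the cytosolic ribosome 1 of 21 tested was higher and 0 lower (median 0.08), and 41 of the 62 listed were not tested. The difference between these lists was not tested. The ribosome counts were 2 higher without LDPL replicate 5, 1 lower without L replicate 4 and 2 lower without LDPL replicate 10 or 24. EIF4E, which binds the mRNA cap, had 65.3, 106 and 161 CPM in LDPL, against 30.3, 46.9 and 52.6 CPM in L (log2 change 1.22 ± 0.16, adjusted p = 1.17e-06). EIF4A1, the helicase of the same complex, had 22.9, 27.5 and 41.9 CPM in LDPL, against 9.03, 12.3 and 18.3 CPM in L (log2 change 1.195 ± 0.15, adjusted p = 2.47e-07), and reads could be shared with its close relative EIF4A2. GNL3 and NOP58, of ribosome assembly in the nucleolus, changed by 0.91 and 0.71. RPL4 and RPLP1, ribosomal proteins, were at 0.08 ± 0.09 and 0.00 ± 0.14 (adjusted p = 0.53 and 0.984). Processed copies of ribosomal protein genes make these counts uncertain. With quantile scaling the lower counts were 3 translation and 6 ribosome genes.

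Nutrient transporters had 7 of 18 higher and 0 lower, with a median of 0.54. SLC19A2, a thiamine transporter, had 66.8, 88.1 and 177 CPM in LDPL, against 6.28, 7.57 and 13.8 CPM in L (log2 change 3.701 ± 0.27, adjusted p = 1.37e-11). SLC16A10, a carrier of aromatic amino acids, had 31.6, 38.4 and 51.2 CPM in LDPL, against 9.85, 11.7 and 15.00 CPM in L (log2 change 1.74 ± 0.19, adjusted p = 3.13e-08). SLC38A2, a glutamine and alanine transporter, changed by 1.39. In each of these 3 the groups were apart. Of 21 polyamine, creatine and nitrogen genes 6 were higher and 2 lower. ODC1, the first enzyme of polyamine synthesis, changed by 1.05. Among the AMP deaminases, AMPD1, the form of adult muscle, had 625, 1103 and 1190.1 CPM in LDPL, against 1573, 1722 and 2125 CPM in L (log2 change -0.87 ± 0.20, adjusted p = 0.00147), and AMPD3, a form also found in red cells, had 14.6, 25.7 and 95.7 CPM in LDPL, against 0.8904, 4.47 and 21.5 CPM in L (log2 change 2.51 ± 0.50, adjusted p = 0.000379). The first was lower without overlap, and the second was higher with overlap.

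Antioxidant genes numbered 9 higher and 3 lower of 26. SRXN1, sulfiredoxin, had 8.39, 18.2 and 38.2 CPM in LDPL, against 0.542, 1.498 and 5.38 CPM in L (log2 change 3.47 ± 0.54, adjusted p = 2.01e-05). HMOX2, a heme oxygenase, changed by 1.47, NFE2L1, a factor that drives proteasome genes, by 0.87, and TXNRD1, the cytosolic thioredoxin reductase, by 0.85. CAT, catalase, had 157, 199.6 and 259.8 CPM in LDPL, against 330.4, 369 and 453 CPM in L (log2 change -0.91 ± 0.12, adjusted p = 1.44e-06). The rises of these 4 genes and the fall of CAT were without overlap.

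Among regulators of energy use, 8 of 26 nuclear receptors and coactivators were higher and 1 lower, with a median of 0.17. RORA, which also acts in the clock, had 68.8, 87.9 and 97.5 CPM in LDPL, against 27.6, 34.1 and 46.8 CPM in L (log2 change 1.27 ± 0.13, adjusted p = 1.49e-08). PPARA, PPARD, ESRRA and ESRRG, receptors that control fat oxidation and mitochondria, changed by 1.01, 0.79, 0.67 and 1.79. These 4 overlapped between groups. The lower member, PPARGC1B (log2 change -0.60 ± 0.22, adjusted p = 0.0394), lost its call in 14 of 24 other settings, among them without L replicate 2 (edgeR adjusted p = 0.0511).

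Nuclear genes of oxidative phosphorylation had 20 of 38 higher and 0 lower, with a median of 0.34. The higher count was 12 without L replicate 2 or LDPL replicate 24, 13 without L replicate 10, LDPL replicate 8 or LDPL replicate 15, and 8 with quantile scaling. NDUFB9, a subunit of complex I, had 324, 412 and 572 CPM in LDPL, against 169, 217 and 264 CPM in L (log2 change 1.0 ± 0.14, adjusted p = 2.15e-06), with no overlap. COX5B of complex IV and UQCRQ of complex III changed by 0.65 and 0.69. Of 13 mitochondrially encoded genes 1 was higher and 1 lower, with 0 higher without L replicate 2 or LDPL replicate 4 and 2 lower without LDPL replicate 4. In the TCA cycle 1 of 23 was higher and 1 lower, and the higher count was 0 without L replicate 2, 7 or 10 or LDPL replicate 8, 15 or 24, and 3 without L replicate 9. Mitochondrial ribosome, import and dynamics genes had 5 of 25 higher and 0 lower (3 higher without L replicate 2 or LDPL replicate 15, 1 lower without L replicate 2 or 9), among them HSPA9, the mitochondrial HSP70, with 354, 405 and 557 CPM in LDPL, against 208, 260.4 and 285 CPM in L (log2 change 0.73 ± 0.14, adjusted p = 0.000112).

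Fat oxidation genes had 3 of 26 higher and 3 lower, shares of the background size or less. ETFDH, which passes electrons from fat oxidation to ubiquinone, had 242, 282 and 301 CPM in LDPL, against 161, 173 and 223 CPM in L (log2 change 0.63 ± 0.11, adjusted p = 4.39e-05). CPT1A, the liver form of the carnitine shuttle enzyme, and SLC27A1, a fatty acid transporter, changed by -0.73 and -0.73. The rise of ETFDH was without overlap, and the other two overlapped. PDK4, which blocks entry of pyruvate into the TCA cycle, had 1023, 2385 and 4353 CPM in LDPL, against 256, 444 and 1316 CPM in L (log2 change 2.19 ± 0.33, adjusted p = 1.20e-05). PDP1, the phosphatase that opens the same gate, had 7.42, 12.4 and 19.5 CPM in LDPL, against 15.7, 22.1 and 25.00 CPM in L (log2 change -0.70 ± 0.19, adjusted p = 0.00565).

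Glycolysis had 1 of 26 higher and 5 lower, with a median of -0.15, and the lower count was 3 when any of L replicates 5, 7, 8, 9 and 10 or LDPL replicates 4, 9, 10 and 15 was left out. The higher count was 2 without L replicate 2 or 7 or LDPL replicate 10. HK2, the inducible hexokinase, had 13.02, 28.4 and 58.9 CPM in LDPL, against 8.99, 12.9 and 24.02 CPM in L (log2 change 1.17 ± 0.31, adjusted p = 0.00534), and GPI, the next enzyme, had 830.4, 938 and 1072 CPM in LDPL, against 643, 1335 and 1625 CPM in L (log2 change -0.41 ± 0.12, adjusted p = 0.0108). Both overlapped between groups. Of 21 glycogen and AMP kinase genes 5 were higher and 6 lower. UGP2, which makes the glucose donor of glycogen, had 439, 674 and 873 CPM in LDPL, against 172, 243 and 371 CPM in L (log2 change 1.42 ± 0.18, adjusted p = 2.94e-07). PPP1R3C, a glycogen-targeting subunit of protein phosphatase, changed by 1.56, and PPP1R3B, another one, by -1.04. PRKAG2, a gamma subunit of AMP kinase, had 14.5, 32.2 and 69.9 CPM in LDPL, against 6.12, 8.29 and 12.4 CPM in L (log2 change 2.03 ± 0.35, adjusted p = 6.50e-05), PRKAB2, a beta subunit, changed by -0.57, and PHKG1, the catalytic subunit of phosphorylase kinase, by -0.62. UGP2, PPP1R3C and PRKAG2 were without overlap.

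In the slow fibre list 3 of 9 were higher and 0 lower, with a median of 0.13, and -0.04 without L replicate 2. In the fast fibre list 4 of 11 were lower and 0 higher, with a median of -0.21, and -0.39 without L replicate 2. ANKRD2, a stretch-responsive protein of slow fibres, had 64.6, 155 and 315 CPM in LDPL, against 7.897, 17.8 and 51.3 CPM in L (log2 change 2.96 ± 0.40, adjusted p = 2.42e-06). CSRP3, a Z-disc protein that also responds to load, had 182, 590.0 and 753 CPM in LDPL, against 28.3, 62.3 and 192 CPM in L (log2 change 2.698 ± 0.39, adjusted p = 6.74e-06). ATP2A1, which pumps calcium back into the reticulum of fast fibres, had 5925, 7077 and 8818 CPM in LDPL, against 7194, 11951 and 15332 CPM in L (log2 change -0.72 ± 0.14, adjusted p = 0.000261). ANKRD2 was without overlap, and CSRP3 and ATP2A1 overlapped. SYPL2, a triad protein, and MYBPC2, the fast myosin-binding protein C, changed by -1.001 and -0.47. Many myosin heavy chain genes are near-identical over long stretches, so reads can be shared among them. MYH13 (-0.62), and MYH3 and MYH8 in the next paragraph, are uncertain for this reason. The same caution is kept for MYH7B (1.14).

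Genes of immature, denervated or regenerating fibres had 2 of 13 higher and 6 lower, with a median of -0.70; the higher count was 1 without LDPL replicate 4 or 10, and the lower count 2 with quantile scaling. MUSK, the kinase that gathers acetylcholine receptors at the synapse, had 1.89, 7.48 and 12.5 CPM in LDPL, against 0.813, 1.901 and 5.97 CPM in L (log2 change 1.54 ± 0.44, adjusted p = 0.00823). ANKRD1, an ankyrin repeat protein that responds to stretch and injury, changed by 1.27 ± 0.41. MYH3, the embryonic myosin heavy chain, had 2.003, 4.396 and 16.3 CPM in LDPL, against 3.48, 9.06 and 226 CPM in L (log2 change -2.92 ± 0.74, adjusted p = 0.00351). TNNT2, the troponin T of heart and immature muscle, had 0.413, 0.734 and 1.42 CPM in LDPL, against 0.776, 1.97 and 49.7 CPM in L (log2 change -3.31 ± 0.68, adjusted p = 0.000512). The groups overlapped in all 4 genes. MYH8, another myosin heavy chain gene of this list, was also lower, with 13351 to 51543 CPM in LDPL and 25257 to 49507 CPM in L. The counts of MYH3 and MYH8 are uncertain, since reads can be shared with other myosin heavy chain genes. The lower count of the list includes both. MYH3 was highest in L replicates 1, 2 and 7, with 41.4, 226 and 60.6 CPM, while the other L libraries had 3.48 to 11.96 CPM, inside the LDPL range. Without L replicate 2 its log2 change was -1.70 (edgeR adjusted p = 0.0332). The call was lost in all 3 limma tests, at -1.25, -1.72 and -1.42 (limma adjusted p = 0.0601, 0.0871 and 0.0894). On the 10 libraries whose replicate numbers both groups share, which leave out those 3 L libraries and LDPL replicates 14, 15 and 24, the MYH3 log2 change was 0.0964 (edgeR adjusted p = 0.923). Without L replicate 2 TNNT2 changed by -1.26 (edgeR adjusted p = 0.00331), and with quantile scaling by -1.67, no longer called (limma adjusted p = 0.0521). The call of ANKRD1 was lost without LDPL replicate 4 (1.09, adjusted p = 0.0503) or 10 (0.91, adjusted p = 0.0767) and by each limma test.

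Of 24 sarcomere and Z-disc genes 8 were higher and 4 lower. PDLIM3, a Z-disc LIM protein, had 5204, 6207 and 9738 CPM in LDPL, against 2228, 2967 and 4839 CPM in L (log2 change 0.999 ± 0.18, adjusted p = 6.67e-05), and KLHL40, which stabilises thin filaments, changed by 1.32. Both were without overlap. KY, a protein needed for muscle upkeep in mice, had 21.9, 30.5 and 40.4 CPM in LDPL, against 13.98, 122 and 334 CPM in L (log2 change -2.15 ± 0.42, adjusted p = 0.000263), with one L library under all LDPL libraries. OBSL1, a cytoskeletal linker, changed by -0.996 and MYOM2, an M-band protein of fast fibres, by -0.69. In calcium handling 2 of 26 were higher and 9 lower, with a median of -0.21. HRC, a calcium buffer of the sarcoplasmic reticulum, had 131, 199.9 and 221 CPM in LDPL, against 307, 364 and 449 CPM in L (log2 change -0.95 ± 0.13, adjusted p = 1.03e-06), below all L libraries. PPP3CA, the catalytic subunit of calcineurin, and NFATC3, one of its targets, changed by -0.73 and -0.50, and NFATC1, another target, by 0.72.

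Channels and pumps were split, with 5 of 20 higher and 4 lower (2 lower without L replicate 1, LDPL replicate 14 or LDPL replicate 15). Among all genes 14.8% were higher and 14.7% lower. KCNC1, a fast potassium channel, had 2.54, 7.84 and 14.5 CPM in LDPL, against 0.465, 1.27 and 2.01 CPM in L (log2 change 2.77 ± 0.37, adjusted p = 1.32e-06). ATP1B4, a relative of sodium pump beta subunits, changed by -1.02. KCNT1, a sodium-activated potassium channel, had 4.69, 5.91 and 7.54 CPM in LDPL, against 8.604, 18.2 and 21.6 CPM in L (log2 change -1.55 ± 0.18, adjusted p = 1.17e-07). All 3 were without overlap. Of 19 dystrophin complex and basal lamina genes 1 was higher and 3 lower, and the lower count was 5 or 6 without LDPL replicate 4 or 5. It was 8 with quantile scaling and 7 with limma-voom with sample weights. POMT1, which adds mannose to dystroglycan, had 4.998, 6.03 and 8.63 CPM in LDPL, against 10.3, 11.1 and 12.03 CPM in L (log2 change -0.78 ± 0.11, adjusted p = 3.53e-06).

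**Figure D5:**
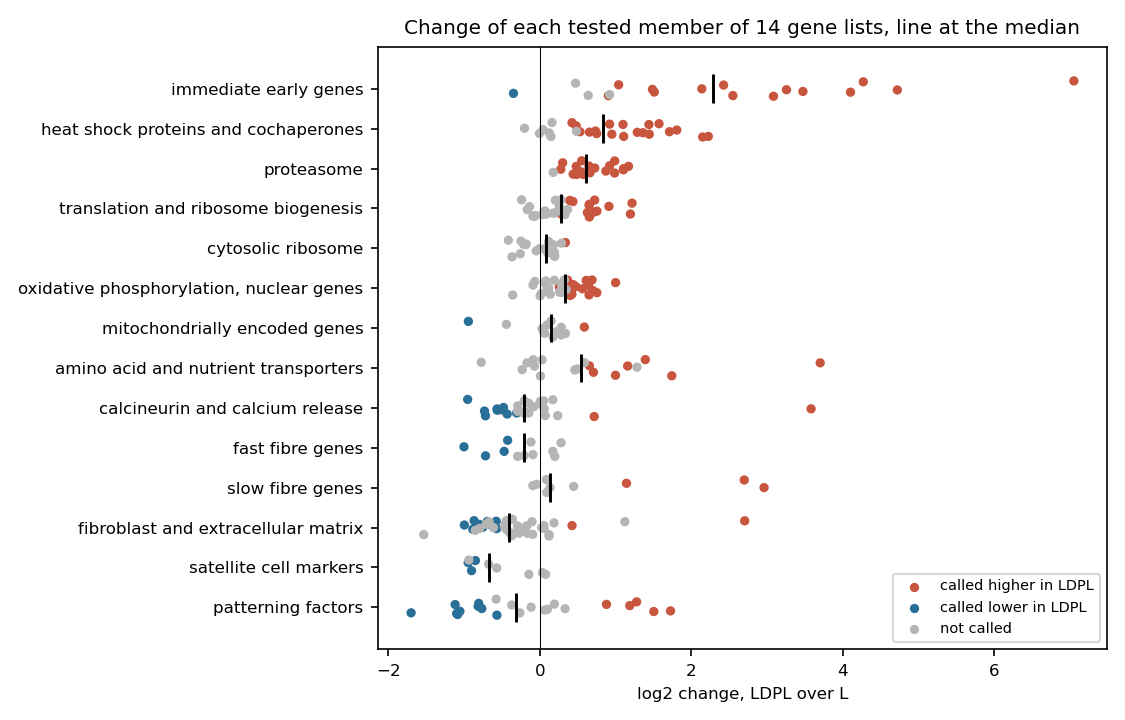
Log2 change of every tested member in 14 lists, with the list median as a line. All 20 proteasome members lie right of 0 and 19 of them are called, whereas the cytosolic ribosome has its median at 0.08.

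Growth regulators were called in both directions. Of 23 myogenic regulators 4 were higher and 5 lower (3 lower without LDPL replicate 8). These shares of 17.4% and 21.7% stand near the 14.8% and 14.7% of all genes. MYF6, the myogenic factor most abundant in mature fibres, had 151, 238 and 321 CPM in LDPL, against 82.3, 108 and 209 CPM in L (log2 change 0.90 ± 0.22, adjusted p = 0.00237). MEF2C and SIX4, activators of muscle genes, changed by -0.71 and -0.85. MAMSTR, a coactivator of MEF2, had 8.68, 11.6 and 17.4 CPM in LDPL, against 32.9, 45.98 and 48.3 CPM in L (log2 change -1.81 ± 0.16, adjusted p = 7.69e-10), the smallest adjusted p among named genes called lower. Of 28 genes around myostatin, activin and BMP 2 were higher and 7 lower (4 higher without L replicate 2). MSTN, myostatin, an inhibitor of muscle growth, had 5.08, 15.5 and 30.6 CPM in LDPL, against 28.98, 39.7 and 46.1 CPM in L (log2 change -1.19 ± 0.31, adjusted p = 0.00378). Its highest LDPL library lay just above its lowest L library. FST, follistatin, which binds and blocks myostatin, had 1.298, 2.69 and 4.53 CPM in LDPL, against 3.76, 7.02 and 15.5 CPM in L (log2 change -1.53 ± 0.31, adjusted p = 0.00035), so inhibitor and antagonist were both lower.

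In insulin and IGF signalling 5 of 26 were higher and 7 lower. RICTOR, of the second mTOR complex, had 17.7, 23.1 and 26.3 CPM in LDPL, against 5.62, 7.74 and 10.2 CPM in L (log2 change 1.52 ± 0.16, adjusted p = 2.06e-08), and RHEB, which activates the first, changed by 0.83. TBC1D4, which holds back glucose transporter vesicles, had 9.09, 12.6 and 22.2 CPM in LDPL, against 29.1, 37.2 and 53.8 CPM in L (log2 change -1.45 ± 0.20, adjusted p = 1.73e-06), and TBC1D1, its relative, changed by 0.88. PIK3IP1, an inhibitor of PI3 kinase, had 2.88, 6.35 and 8.67 CPM in LDPL, against 10.3, 20.6 and 32.02 CPM in L (log2 change -1.84 ± 0.25, adjusted p = 2.20e-06). IGFBP5, an IGF binding protein, had 7.72, 17.8 and 25.9 CPM in LDPL, against 40.03, 49.8 and 94.4 CPM in L (log2 change -1.68 ± 0.29, adjusted p = 6.03e-05). RICTOR, RHEB, TBC1D4, PIK3IP1 and IGFBP5 were without overlap.

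Of 31 Wnt, Notch, Hippo and FGF genes 2 were higher and 7 lower (4 lower without L replicate 1 or LDPL replicate 14, 4 higher without L replicate 4). FZD4, a Wnt receptor, and FGFR4, an FGF receptor, changed by -0.88 and -1.02. Patterning factors, which keep a trace of body position, had 5 of 22 higher and 9 lower. HOXC10 had 11.98, 15.8 and 21.5 CPM in LDPL, against 0.981, 5.59 and 7.89 CPM in L (log2 change 1.73 ± 0.23, adjusted p = 1.41e-06), and HOXA7 had 12.2, 17.4 and 27.3 CPM in LDPL, against 3.75, 6.796 and 8.17 CPM in L (log2 change 1.504 ± 0.17, adjusted p = 5.85e-08), both without overlap. LBX1 and HOXC6 changed by -1.08 and -0.57. The exact place of sampling along the loin is not in the labels.

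Cell division genes had 0 of 28 higher and 6 lower, with a median of -0.66, at levels mostly under a few CPM. With single libraries left out, the lower count ranged from 2, without L replicate 7, 9 or 10, to 10, without L replicate 4. It was 3 without LDPL replicate 4 or 8. In other settings it ranged from 1, with quantile scaling, to 13, with limma-voom with sample weights. CCNE2, a cyclin of DNA replication, had 0.826, 1.14 and 2.04 CPM in LDPL, against 1.42, 2.46 and 3.24 CPM in L (log2 change -1.01 ± 0.25, adjusted p = 0.00267). Of 15 arrest and p53 genes 7 were higher and 1 lower. GADD45B, a stress sensor, had 17.7, 23.2 and 54.6 CPM in LDPL, against 3.83, 7.49 and 12.7 CPM in L (log2 change 1.92 ± 0.33, adjusted p = 5.87e-05), and PLK2 and PLK3, stress-induced kinases, changed by 1.396 and 1.56. CCNG2, a cyclin of arrested cells, had 6.898, 11.6 and 15.05 CPM in LDPL, against 17.6, 25.2 and 30.1 CPM in L (log2 change -1.08 ± 0.19, adjusted p = 5.22e-05).

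Clock genes had 7 of 15 higher and 3 lower, with a median of 0.49. PER1, a light- and hormone-induced repressor, had 225, 311 and 397 CPM in LDPL, against 88.2, 128 and 187 CPM in L (log2 change 1.196 ± 0.17, adjusted p = 3.37e-06). CRY2, another repressor, had 45.2, 74.7 and 86.8 CPM in LDPL, against 13.4, 28.8 and 36.5 CPM in L (log2 change 1.26 ± 0.19, adjusted p = 6.51e-06). NFIL3, a repressor of D-box genes, had 4.77, 24.2 and 69.4 CPM in LDPL, against 1.203, 2.48 and 4.93 CPM in L (log2 change 3.42 ± 0.54, adjusted p = 2.17e-05), and DBP, the activator at the same D-box sites, had 1.86, 3.69 and 6.43 CPM in LDPL, against 5.802, 11.3 and 23.05 CPM in L (log2 change -1.63 ± 0.29, adjusted p = 6.83e-05). PER1 and CRY2 were without overlap, while NFIL3 and DBP overlapped slightly. The hour of sampling is not in the labels. Among glucocorticoid and fasting genes 6 of 13 were higher and 0 lower (1 lower without LDPL replicate 4 or 10), with a median of 0.35, and 0.603 without L replicate 2. FKBP5, a cochaperone and target of the glucocorticoid receptor, had 85.3, 142 and 228 CPM in LDPL, against 21.3, 29.6 and 75.1 CPM in L (log2 change 1.97 ± 0.29, adjusted p = 8.07e-06). FOXO1, a factor of fasting and wasting, had 77.3, 117 and 179 CPM in LDPL, against 22.3, 33.8 and 45.4 CPM in L (log2 change 1.77 ± 0.19, adjusted p = 3.17e-08). Both were without overlap.

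Matrix genes had 2 of 39 higher and 9 lower, with a median of -0.40. The higher count was 1 without any of L replicates 1, 4, 7, 8, 9 and 10 or LDPL replicates 4, 8, 10, 14 and 24. The lower count was 3 without L replicate 2, 4 without LDPL replicate 9 and 5 without L replicate 7 or LDPL replicate 15. COL3A1, a fibrillar collagen, had 195, 531 and 749 CPM in LDPL, against 706, 1031 and 1401 CPM in L (log2 change -0.996 ± 0.29, adjusted p = 0.0107), and COL15A1, a basement membrane collagen, had 6.52, 10.1 and 17.5 CPM in LDPL, against 14.3, 17.9 and 24.3 CPM in L (log2 change -0.80 ± 0.18, adjusted p = 0.000894). In both genes the groups overlapped. THBS1, thrombospondin, went the other way, with 39.1, 119.9 and 254 CPM in LDPL, against 13.2, 18.5 and 40.02 CPM in L (log2 change 2.704 ± 0.51, adjusted p = 0.000194). Matrix proteases and their inhibitors had 4 of 26 higher and 4 lower, or 15.4% each way, near the 14.8% and 14.7% of all genes. ADAMTS1, an aggrecanase, changed by 1.61, MMP11, stromelysin 3, by -1.25 and SPOCK2, a proteoglycan, by -1.39.

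Fat and sterol lists stand against 14.8% higher and 14.7% lower among all genes. Adipocyte genes had 0 of 10 higher and 2 lower. Their lower count was 1 without L replicate 2, 7 or 8 or LDPL replicate 9 or 10, and 0 without L replicate 4, 5, 9 or 10 or LDPL replicate 4, 5, 14, 15 or 24. Fatty acid synthesis had 2 of 22 higher and 3 lower. Its higher count was 1 without any of L replicates 1, 2, 5, 8, 9 and 10 or LDPL replicates 4, 5, 14 and 15. Its lower count was 1 without L replicate 1 or 4 or LDPL replicate 5, 9 or 24, and 0 without LDPL replicate 15. Lipolysis had 1 of 12 in each direction, with 0 lower without L replicate 4, 5, 9 or 10 or LDPL replicate 5, 14, 15 or 24, and 2 lower without L replicate 8 or LDPL replicate 9. ABHD5, the activator of the main triglyceride lipase, had 16.8, 22.8 and 35.9 CPM in LDPL, against 10.9, 15.4 and 16.5 CPM in L (log2 change 0.67 ± 0.15, adjusted p = 0.000706), without overlap. In cholesterol synthesis 2 of 18 were higher and 3 lower (1 higher without L replicate 4 or 5 or LDPL replicate 5, 8 or 15). FDFT1, squalene synthase, changed by -0.93.

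Endothelial markers had 0 of 13 higher and 3 lower (1 without L replicate 1), and their summed level was 164, 229 and 287 CPM in LDPL, against 193, 258 and 350.4 CPM in L. KDR, the main receptor of VEGF, had 7.81, 9.88 and 15.3 CPM in LDPL, against 12.7, 16.4 and 22.1 CPM in L (log2 change -0.68 ± 0.18, adjusted p = 0.0038), while VEGFA, its ligand, had 54.8, 84.9 and 118 CPM in LDPL, against 20.2, 40.9 and 55.97 CPM in L (log2 change 1.12 ± 0.29, adjusted p = 0.00393). Satellite cell markers had 0 of 9 higher and 3 lower, with a summed level of 83.02, 99.99 and 117 CPM in LDPL, against 104, 139 and 195 CPM in L. CDH15, M-cadherin, had 12.2, 19.1 and 24.3 CPM in LDPL, against 25.03, 33.9 and 41.7 CPM in L (log2 change -0.85 ± 0.17, adjusted p = 0.000227), without overlap, and MET, the receptor that wakes these cells, changed by -0.95. Pericyte and smooth muscle markers had 2 of 11 higher and 1 lower (1 higher without LDPL replicate 4), with a summed level of 5354, 6437 and 8599 CPM in LDPL, against 4244, 5787 and 6299.7 CPM in L. This list includes DES and SYNM, which are also in the sarcomere and Z-disc list, so the sum is not a level of these cells alone. TAGLN and ACTA2 reached only 83.7 and 104 CPM in any LDPL library. TAGLN, a smooth muscle protein, changed by 0.93 and NOTCH3 by -0.78.

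Macrophage markers had 0 of 14 higher and 1 lower, and 4 higher and 1 lower without L replicate 2. Their summed level was 75.99, 111 and 196 CPM in LDPL, against 62.7, 82.3 and 248 CPM in L. Lymphocyte markers had 0 of 10 higher and 2 lower (1 lower without L replicate 2 or LDPL replicate 5, 8, 9 or 15), at a summed 8.51, 11.7 and 27.7 CPM in LDPL, against 8.01, 14.2 and 53.2 CPM in L. Blood markers had 0 of 4 called, at a summed 191, 270.5 and 441 CPM in LDPL, against 263, 315 and 369 CPM in L, and HBB, a hemoglobin chain, was at 0.51 ± 0.54 (adjusted p = 0.513). A large part of this sum was SPTB, with 139 to 244 CPM in LDPL and 142 to 296 CPM in L. Of 5 nerve markers 0 were higher and 1 lower, and 0 without L replicate 2. The part of these cells in the other results was not tested.

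Cytokine and inflammatory genes had 7 of 25 higher and 2 lower (1 lower without L replicate 2), interferon genes 1 of 33 higher and 3 lower (1 lower without L replicate 2), antigen presentation 0 of 11 higher and 4 lower (2 lower without L replicate 2 or LDPL replicate 9, 10 or 15, 1 higher without L replicate 10 or LDPL replicate 5), and complement 0 of 10 higher and 2 lower. TNFRSF12A, the receptor of the cytokine TWEAK, had 22.8, 41.4 and 68.8 CPM in LDPL, against 5.22, 9.85 and 14.1 CPM in L (log2 change 2.09 ± 0.25, adjusted p = 2.64e-07), without overlap. CXCL2, a neutrophil attractant, changed by 1.97, NFKBIZ, a regulator of NF-kappaB, by 1.42 and ERAP1, which trims peptides for antigen presentation, by -1.23. In the hypoxia list 4 of 17 were higher and 2 lower (1 lower without L replicate 7 or LDPL replicate 9 or 15), and HIF1A, the oxygen-sensed factor, had 28.4, 34.4 and 41.6 CPM in LDPL, against 17.1, 21.6 and 28.5 CPM in L (log2 change 0.62 ± 0.12, adjusted p = 0.000262).

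Among 13 candidate genes of pig breeds and meat quality 2 were higher and 4 lower, with 1 higher without L replicate 1, 4, 9 or 10 or LDPL replicate 4, 5, 9 or 15. KIT, the receptor whose variants give white coat in pigs, had 0.867, 1.57 and 4.18 CPM in LDPL, against 5.03, 6.64 and 12.5 CPM in L (log2 change -2.07 ± 0.30, adjusted p = 4.36e-06), with all LDPL libraries below all L libraries. ESR1, the estrogen receptor, had 1.18, 2.18 and 6.65 CPM in LDPL, against 3.34, 7.48 and 15.7 CPM in L (log2 change -1.69 ± 0.35, adjusted p = 0.000497), with overlap. Of the 3783 called genes, 590 higher and 520 lower had no symbol. The one with the smallest p, ENSSSCG00000016700, had 4.70, 10.3 and 15.4 CPM in LDPL, against 0.0752, 0.284 and 0.504 CPM in L (log2 change 5.09 ± 0.28, adjusted p = 2.45e-15). ERBB2, a growth factor receptor, and CITED2, a coactivator partner, changed by -1.58 and -1.71. They were among the 15 largest falls of genes with a symbol and at least 10 CPM in the higher group. SMPDL3A, a phosphodiesterase, and COQ10B, of coenzyme Q, rose by 3.19 and 2.16.

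The 8 LDPL libraries did not rise evenly. The 15 largest rises were taken among genes with a symbol and at least 10 CPM in the higher group. In these, LDPL replicate 5 was the lowest LDPL library in 7, and LDPL replicates 4 and 9 were the highest in 5 each. Over 5142 genes at 10 CPM or more in both groups, the median coefficient of variation was 0.161 in LDPL and 0.153 in L, or 0.138 in L without replicate 2. Against DPL, the other parent breed, 348 genes were called (2.71%), 159 higher (1.24%) and 189 lower (1.47%) in LDPL. Of the 15 largest rises against L, and of the 15 largest falls under the same limits, 0 were among them. Their edgeR adjusted p against DPL was at least 0.224 and 0.171. Both comparisons share the LDPL libraries. NR4A3 had 37.5, 145 and 306 CPM in DPL, where LDPL over DPL was log2 change -0.27 ± 0.49, adjusted p = 0.836. KLHL33 had 4.99, 9.699 and 20.5 CPM in DPL (log2 change 0.04 ± 0.30, adjusted p = 0.969), and RETREG1 had 369, 479 and 1049 CPM in DPL (log2 change 0.14 ± 0.22, adjusted p = 0.791).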

How the data were processed

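The authors deposited 1 file per library, with unscaled counts of unique reads for each gene, RPKM values, a coverage value and a length, per the file headers. In all 32 files the deposited counts added up to the total in the header, and the authors' RPKM values equalled the counts scaled by length and that total. The deposited coverage, treated here as a score, is the authors' percent of the gene covered by reads, and 12 values exceed 100. Genes without reads are not listed and were set to 0. Bowtie 0.12.2, Cufflinks and a mouse build are named per the submitters' processing notes, while the identifiers are of pig, so no positions are printed: the pig build and annotation behind the files are not given in the sources. The kit does not mark strand, so reads of overlapping genes on opposite strands cannot be told apart.

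Symbols were found for 10836 of 17930 genes (60.4%). Genes were kept by filterByExpr (at least 10 counts, total at least 15), leaving 12821 genes with 99.97% of the reads. One quasi-likelihood model (edgeR 4.0.16, R 4.3.3, TMM scaling, robust) was fitted over the 32 libraries and 4 groups, and LDPL minus L was tested with Benjamini-Hochberg adjustment. The procedure was tested on simulated counts. Alternatives used limma 3.58.1, DESeq2 1.42.0, another filter or scaling, and each of the 16 libraries left out in turn. Values per library were compared by two-sided exact permutation tests. No 2 libraries of a group had near-identical counts (chi-square over its degrees of freedom at least 33.7). The 56 gene lists were chosen with earlier results of these data known, and they are described by counts and medians without a list test. Genes named were the 15 largest rises and falls, the 10 smallest adjusted p in each direction and the 10 highest levels among called genes of at least 10 CPM, and up to 4 members per list and direction by adjusted p, or the 2 most abundant members of a list with fewer than 2 calls. Not all of these are printed, and a few are not reported here.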

Additional observations from a re-analysis of the deposited data

Results flagged for a closer look

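A library was set aside for a closer look where its gap to the nearest other library of its group as a share of the group's range exceeded Dixon's critical value for 8 samples, on log2(CPM + 0.5) for genes. This was so in 36 of 328 groups of 8, whereas chance gives about 1 in 20. L replicate 2 held 14 of the 36. LDPL replicate 4 was the highest of its group for EIF4A1 (41.9 CPM) and the lowest of its group for ASB15 (15.6 CPM), HOXC6 (9.11 CPM) and HRC (131 CPM). LDPL replicate 5 was the lowest of its group for IGFBP5 (7.72 CPM) and MYH7B (49.6 CPM). LDPL replicate 8 was the highest of its group for OBSL1 (51.1 CPM). LDPL replicate 10 was the highest of its group for KIT (4.18 CPM) and PHGDH (2.03 CPM). LDPL replicate 14 was the highest of its group for CPT1A (20.8 CPM) and the lowest of its group for KCNC1 (2.54 CPM) and PPARD (23.4 CPM). LDPL replicate 24 was the lowest of its group for PPARGC1B (0.858 CPM). L replicate 1 was the lowest of its group for EIF4E (30.3 CPM). L replicate 2 was the highest of its group for THBS1 (40.02 CPM) and TNNT2 (49.7 CPM) and the lowest of its group for CRY2 (13.4 CPM), FDFT1 (98.9 CPM), GPI (643 CPM), HBB (5.55 CPM), KCNT1 (8.604 CPM), MAP2K6 (5.04 CPM), MYBPC2 (4263 CPM), MYH13 (1334 CPM), PRKAB2 (42.2 CPM), SPOCK2 (2.298 CPM) and TRIM63 (75.2 CPM). L replicate 7 was the highest of its group for OTUD1 (43.3 CPM) and the lowest of its group for ABHD5 (10.9 CPM) and BAG3 (126 CPM). L replicate 8 was the highest of its group for TRIM32 (6.08 CPM) and the lowest of its group for SLC38A2 (4.99 CPM). L replicate 9 was the highest of its group for SLC19A2 (13.8 CPM). L replicate 10 was the highest of its group for RETREG1 (54.6 CPM). L replicate 2 also had the most listed genes, 15664, and LDPL replicate 4 the lowest median coverage of long genes, 95.06%.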

How the results depend on the processing

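The total number of calls stayed within 1.5 times that of the edgeR test in 24 of 26 alternatives. Leaving out 1 library gave 3209 to 3720 calls, with 1648 to 1891 higher and 1561 to 1829 lower. The limma test of log2(RPKM + 1) called 1210 rises; the cause was not tested. The replicate numbers that the groups share were checked over 5 pairs, and deviations of same-numbered libraries correlated at -0.06 to 0.06. With 5 pairs this check cannot decide whether the numbers pair the libraries. On the 10 libraries with shared numbers, which are fewer samples, 2136 genes were called without a block (1153 higher, 983 lower), and 1818 with the replicate block (991 higher, 827 lower). The difference of the mitochondrial share was 2.08 points, 1.07 to 3.11 points with single libraries left out, and 0.155 points with the block (exact sign-flip p = 1, smallest possible 0.0625), and it passed the threshold in none of these. A share over all genes with mitochondrial symbols equalled this share in every library, since no other gene carried such a symbol. Of 3816 gene values under the 24 alternatives on more than 10 libraries, 3774 kept their side of the threshold, 40 lost the call and 2 gained one. Among values called in either test, 0 reversed direction. A change of sign in a gene called in neither test was not counted. RPLP1, for example, was at -0.0540 without L replicate 2 and at 0.0623 without L replicate 7. On the 10 libraries with shared numbers, which leave out L replicates 1, 2 and 7, the MYH3 log2 change was 0.0964 without a block, the reverse of the fall above (edgeR adjusted p = 0.923). The lost calls were in ANKRD1 (5), MYH3 (3), TNNT2 (1), PHGDH (2), PPARGC1B (14) and SRF (15), and the cause was not tested. On the log2(RPKM + 1) scale NR4A3 changed by 4.27, KIT by -0.98 and ESR1 by -0.83, smaller than by edgeR. Under these alternatives 2419 list counts stayed within 1.5 times the reported count and 267 moved further; the cause was not tested. Without mitochondrially encoded reads that list has no members and no count. The ± of a log2 change rests on 8 libraries a group and on a spread estimated from all 32 libraries. Counts of genes at a few CPM are the least precise.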
